A study of Mus musculus with 9 samples.

Results

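The core of the circadian clock was described here by 9 genes, all 9 of which were found by symbol among the 51912 genes listed for 9 mouse livers. Members were chosen by symbol. They are the activators *Arntl* (which encodes BMAL1), *Clock* and *Npas2*, and the repressors *Per1*, *Per2*, *Per3*, *Cry1*, *Cry2* and *Ciart*. The set is the textbook loop, but it was selected on the values of these same livers, in which the levels of *Arntl* and its partners and repressors had been seen to differ. Their levels, group comparisons and correlations are therefore given as a description. The mice were *Apoe*-/- *Ndst1* f/f *Alb-Cre*+ on a C57Bl/6 background, so all of them lacked apoE throughout the body. The Cre is driven by the albumin promoter and removes the heparan sulfate sulfotransferase NDST1 in hepatocytes. Livers came from fasted animals, 5 given an antisense oligonucleotide (ASO) against apoC-III and 4 given a control ASO, each at 50 mg/kg/week by intraperitoneal injection for 8 weeks. Mice were kept on a 12 h light cycle. The time of day at which the livers were taken, the age and the sex of the mice were not given in the sources used here, and the sources do not say which diet the sequenced mice ate.

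In the loop, BMAL1 pairs with CLOCK or with its paralog NPAS2 and binds E-boxes, DNA elements with the letters CACGTG or close variants. The pair switches on the *Per* and *Cry* genes and *Ciart*, whose proteins return to the nucleus and block the same pair, so that activation rises and falls over about a day. A second loop joins in through the ROR activators and the REV-ERB repressors, which compete for AGGTCA elements at *Arntl* and other genes. In liver, as in most tissues, *Arntl*, *Clock* and *Npas2* transcripts are known to peak at nearly the opposite time of day from those of *Per3*, *Ciart* and the output factor *Dbp*, and the timing of the liver clock follows feeding as well as light.

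The elements through which these genes are known to be driven were looked up in their promoters, and the stretches that hold them are shown to set the activators and the repressors side by side. RefSeq windows of GRCm38.p6 that run from 250 bases before to 50 bases after a start site were read for 8 of the 9 genes, in 12 windows; *Per2* had no entry. Capitals mark the match and lower case its surroundings, both written 5′ to 3′ on the strand of the gene.
Ciart, chr3:95882259-95882352, minus strand: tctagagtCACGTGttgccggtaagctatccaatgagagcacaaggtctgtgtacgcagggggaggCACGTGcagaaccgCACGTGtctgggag
Per1, chr11:69098772-69098799, plus strand: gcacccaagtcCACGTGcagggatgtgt
Cry1, chr10:85185099-85185144, minus strand: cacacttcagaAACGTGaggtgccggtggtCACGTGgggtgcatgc
Cry2, chr2:92434220-92434241, minus strand: ggtgggAACGTGagggggcgga
Per3, chr4:151044808-151044878, minus strand: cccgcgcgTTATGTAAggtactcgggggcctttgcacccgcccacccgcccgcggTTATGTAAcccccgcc
Arntl, chr7:113207534-113207556, plus strand: cagaaagtAGGTCAgggacggag

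The *Ciart* window held 3 E-boxes, with first bases at -116, -58 and -44 from the start site, and *Per1* and *Cry1* held 1 each, at -166 and -60. The E-box CACGTG reads alike on both strands and was present in 7.15% of all 32851 windows. The variant CACGTT, or AACGTG on the other strand, stood in the *Cry1* window at -79 and in the *Cry2* window at -166, against 4.68% of all windows. *Per3* held 2 D-boxes, the element of the PAR bZIP factors DBP, TEF, HLF and their competitor NFIL3, with first bases at -205 and -158. The letters searched were TTATGTAA or TTACATAA, which 0.938% of all windows held. AGGTCA, or TGACCT on the other strand, was found in 1 window each of *Arntl*, *Clock* and *Per1*, and in 16.3% of all windows. The *Arntl* match began 32 bases into the transcript. None of these letters was found in the *Npas2* window. The 4 motifs do not overlap one another in these windows, and a match is a description of the letters only.

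Values are given after protein-coding rescaling, in which the deposited TPM (transcripts per 1000000, a share corrected for gene length) of nuclear protein-coding genes was rescaled to 1000000 per liver and divided by median-of-ratios factors. This step was taken because the noncoding 7SL copies *Rn7s1* and *Rn7s2* took 64.0% to 83.6% of the TPM and left nuclear protein-coding genes 1.94% to 8.64%. The factors ranged from 0.496 in control ASO 4 to 1.44 in apoC-III ASO 2. Depth cannot be read from TPM, and counting errors are therefore not given. The ASO target *Apoc3* had 334 to 623 rescaled units with the apoC-III ASO and 3170 to 4293 with the control ASO. This is a log2 fold change of -3.01 (SE 0.23, limma with Benjamini-Hochberg adjusted p = 3.83e-04), in the direction the labels call for. The livers apoC-III ASO 1, 2 and 3 stood apart in the clock genes, and the comparisons and correlations of these genes are given with and without them. They also had the 3 highest factors, 1.35, 1.44 and 1.19, against 0.496 to 1.16 in the other livers, and the part of these factors in the results was not tested beyond the ratios and alternative scalings given here.

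*Arntl* (ENSMUSG00000055116, chr7:113207465-113314126 of GRCm38, plus strand) encodes the BMAL1 subunit that every active pair of the loop contains. It had 17.7, 11.1 and 30.9 rescaled units in apoC-III ASO 1, 2 and 3, but 0.740 and 2.75 in apoC-III ASO 4 and 5. In control ASO 1 to 4 it had 0.320, 1.06, 1.11 and 2.46. The treated group therefore held both the highest values and values inside the control range, and the highest liver was 96.5-fold above the lowest. The size of this span is uncertain, since *Arntl* went down to 0.0237 TPM and depth is unknown. On average *Arntl* had 12.6 ± 12.3 rescaled units in the apoC-III ASO group (SD, n = 5) and 1.24 ± 0.891 in the control ASO group (SD, n = 4).

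*Clock* (ENSMUSG00000029238, chr5:76209868-76304792, minus strand) encodes the DNA-binding partner of BMAL1. The same 3 livers had 25.5, 24.9 and 25.7 rescaled units, whereas apoC-III ASO 4 and 5 had 10.4 and 9.91. The controls had 11.9, 10.1, 11.7 and 10.6. *Clock* thus took only 2 narrow levels, with no liver between 11.9 and 24.9. Within the control group it was among the least variable genes measured, since 2.06% of the 11954 genes tested had a smaller SD on the log2 scale.

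*Npas2* (ENSMUSG00000026077, chr1:39193731-39363236, plus strand), which encodes the paralog that can stand in for CLOCK, was scarce. It was listed at 2.12, 0.513 and 4.52 rescaled units in apoC-III ASO 1, 2 and 3 and at 0 in apoC-III ASO 4 and 5. Control ASO 2 was also listed at 0, and control ASO 1, 3 and 4 had 0.0613, 0.0536 and 0.143. The order of the livers was that of *Arntl* and *Clock* at its upper end, but with a mean of 0.822 the gene missed the minimum of 1 and was not tested.

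Among the repressors, *Ciart* (ENSMUSG00000038550, chr3:95878503-95882251, minus strand), whose protein represses the CLOCK and BMAL1 pair, differed most between livers. It had 3.69, 3.84 and 3.11 rescaled units in apoC-III ASO 1, 2 and 3. In apoC-III ASO 4 and 5 it had 198 and 282, the 2 highest values of all, and the controls had 69.9, 173, 109 and 106. The control range therefore lay between the low and the high livers of the treated group. The highest liver was 90.5-fold above the lowest, and 99.8% of all genes tested had a smaller SD over the 9 livers. Group means of 98.1 ± 133 (SD, n = 5) and 114 ± 42.9 (SD, n = 4) hide this split.

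*Per3* (ENSMUSG00000028957, chr4:151003652-151044665, minus strand), a period gene that is used as a marker of clock phase, had 3.21, 7.01 and 1.49 rescaled units in apoC-III ASO 1, 2 and 3. It had 36.1 and 33.6 in apoC-III ASO 4 and 5. The controls had 66.4, 42.5, 45.0 and 10.7. *Per3* was lowest in the 3 livers with the most *Arntl*, and control ASO 4, the control with the most *Arntl*, had the least *Per3* of its group.

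*Per2* (ENSMUSG00000055866, chr1:91415982-91459324, minus strand) encodes a scaffold of the repressor complex and also responds to feeding and glucocorticoids. It had 3.35, 8.31 and 4.81 rescaled units in apoC-III ASO 1, 2 and 3 and 25.1 and 40.5 in apoC-III ASO 4 and 5. In the controls it had 88.1, 129.7, 83.7 and 12.1. Each treated liver lay below control ASO 1, 2 and 3, and the groups overlapped through control ASO 4 alone. Within the control ASO group the SD of *Per2* exceeded that of 98.1% of genes and the SD of *Per3* that of 95.4%.

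*Per1* (ENSMUSG00000020893, chr11:69095217-69109960, plus strand), a period gene that responds rapidly to light and hormones, varied less. It had 19.0, 24.5 and 10.2 rescaled units in apoC-III ASO 1, 2 and 3, 42.0 and 55.2 in apoC-III ASO 4 and 5, and 30.0, 48.6, 37.8 and 32.0 in the controls. The first 3 were again the lowest of the 9 livers. The highest was 5.42-fold above the lowest, against 44.5-fold for *Per3* and 38.7-fold for *Per2*.

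The cryptochromes, the strongest repressors of the pair, did not have apoC-III ASO 1, 2 and 3 as the 3 lowest livers, although *Cry2* came close. *Cry1* (ENSMUSG00000020038, chr10:85131700-85185064, minus strand) had 2.70, 2.69, 6.39, 7.43 and 7.17 rescaled units in apoC-III ASO 1 to 5 and 2.34, 13.6, 2.91 and 10.1 in control ASO 1 to 4. Its lowest and highest livers were both controls. *Cry2* (ENSMUSG00000068742, chr2:92403646-92434043, minus strand) had 17.0, 20.8, 20.2, 40.1 and 32.0 rescaled units in apoC-III ASO 1 to 5 and 30.6, 25.4, 36.4 and 19.3 in the controls. Only control ASO 4, at 19.3, lay among apoC-III ASO 1, 2 and 3 at the low end of *Cry2*. *Cry2* varied least of the 8 genes tested, with 2.36-fold between the extreme livers and an SD above that of 46.1% of all genes.

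**Figure D1:**
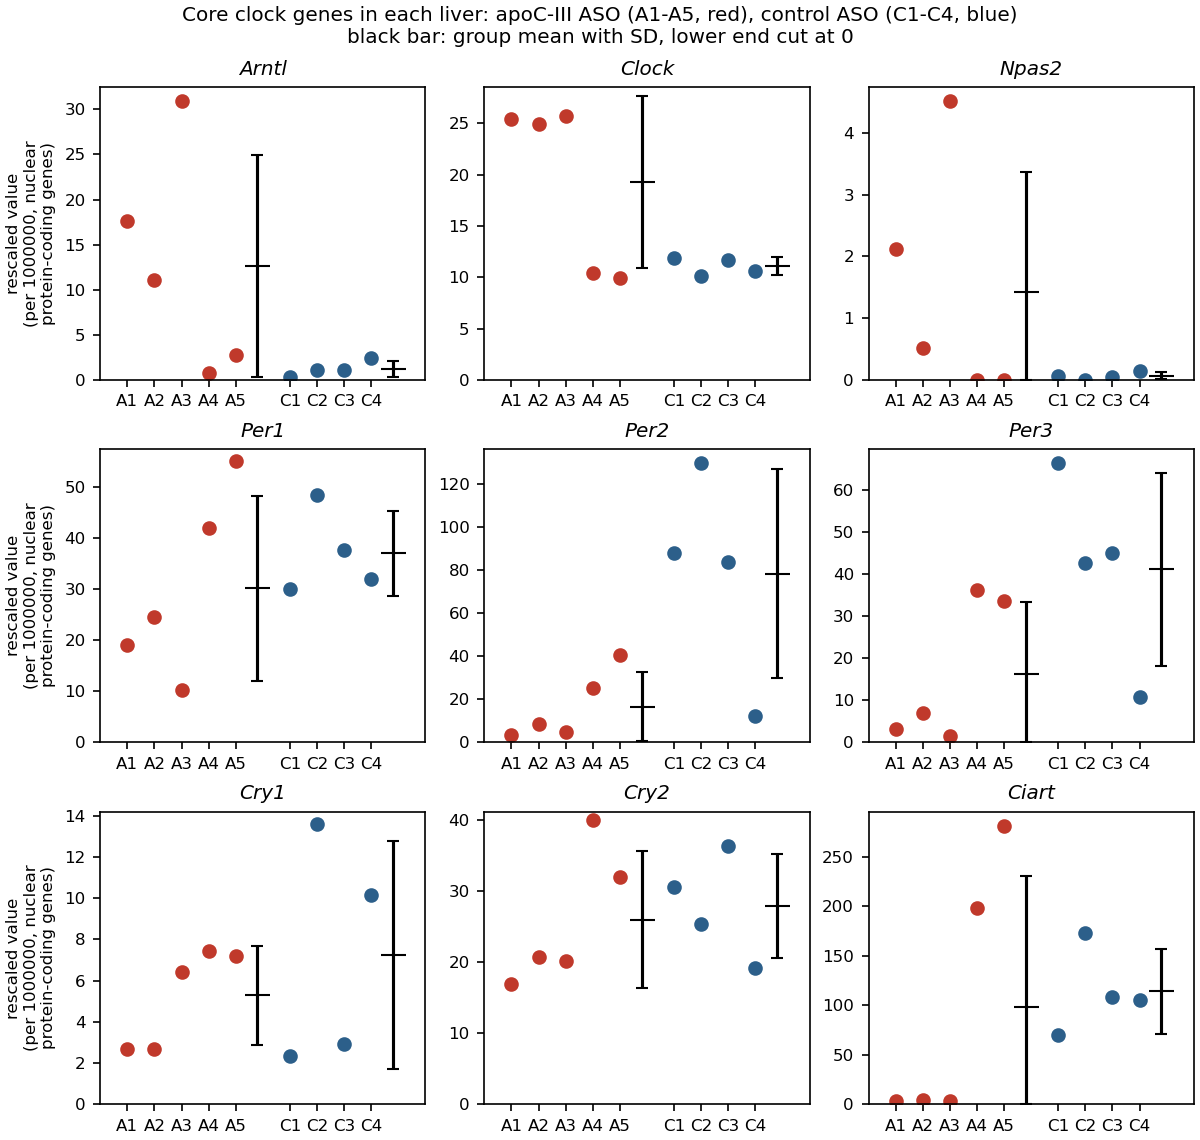
Rescaled value of each of the 9 core clock genes (vertical axis, units per 1000000 of nuclear protein-coding genes, each panel with its own scale from 0) in apoC-III ASO livers 1 to 5 (A1 to A5, red) and control ASO livers 1 to 4 (C1 to C4, blue). Black bars give the group mean with its SD. Livers A1 to A3 are the 3 highest for Arntl, Clock and Npas2 and the 3 lowest for Per1, Per2, Per3 and Ciart.

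ApoC-III ASO 1, 2 and 3 were the 3 highest livers for 3 of the 9 genes, *Arntl*, *Clock* and *Npas2*. They were the 3 lowest for 4, *Per1*, *Per2*, *Per3* and *Ciart*, and neither for *Cry1* and *Cry2*. These livers were singled out on the values of these genes, so the counts only describe that choice. The share of all genes that place them so was not computed. Among the cell type markers, *Tat*, *Cps1*, *Lrat* and *Dcn* also had them lowest and *Sox9* highest. *Ciart*, *Per3*, *Per2* and *Arntl* each had an SD over the 9 livers above that of 99.1% or more of the genes tested. In the apoC-III ASO group these 4 exceeded 98.2% or more of all genes. Of these, *Per2* and *Per3* were also above 95% of genes within the control ASO group, where *Arntl* exceeded 70.5% and *Ciart* 66.2%.

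By level corrected for length, the mean order of the tested genes in the control ASO group was *Ciart* (114), *Per2* (78.4 ± 48.8), *Per3* (41.1 ± 23.0), *Per1* (37.1 ± 8.33), *Cry2* (27.9 ± 7.33), *Clock* (11.1 ± 0.848), *Cry1* (7.25 ± 5.53) and *Arntl* (1.24), each with the SD over 4 livers. The ranges of mean ± SD of neighbors overlapped except between *Cry2* and *Clock*. In the apoC-III ASO group *Ciart* also had the highest mean, followed by *Per1* (30.2 ± 18.2), *Cry2* (26.0 ± 9.69), *Clock* (19.3 ± 8.34), *Per2* (16.4 ± 16.0), *Per3* (16.3 ± 17.1), *Arntl* (12.6) and *Cry1* (5.28 ± 2.39). In that order the ranges of mean ± SD of all neighbors overlapped. *Ciart* was above 92.6% of all genes tested in mean level and *Cry1* above 32.8%.

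Ratios between 2 genes of the same liver do not depend on how livers are scaled. The TPM ratio of *Arntl* to *Ciart*, an activator over one of its targets, was 4.78, 2.88 and 9.93 in apoC-III ASO 1, 2 and 3. In the other 6 livers it ran from 0.00374 in apoC-III ASO 4 to 0.0233 in control ASO 4. *Ciart* was thus below *Arntl* in 3 livers and between 43.0-fold and 268-fold above it in the rest. The ratio of *Arntl* to *Per3* was 5.51, 1.58 and 20.7 in the same 3 livers and 0.00483 to 0.231 in the others, so the highest was 4296-fold above the lowest. *Arntl* went down to 0.0237 TPM, a very low value, and depth is unknown. The size of these spans is therefore uncertain.

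Ratios among repressors divided the livers otherwise. *Per1* over *Per2* was 5.66, 2.94, 2.12, 1.68 and 1.36 in apoC-III ASO 1 to 5 and 0.341, 0.375, 0.452 and 2.64 in control ASO 1 to 4. All 5 treated livers and control ASO 4 held more *Per1* than *Per2*, and the other 3 controls held less. *Ciart* over *Per2* was 7.90 and 6.96 in apoC-III ASO 4 and 5 and 8.72 in control ASO 4, whereas the other 6 livers had 0.463 to 1.33. *Cry1* over *Cry2* stayed below 1 in every liver, from 0.0764 in control ASO 1 to 0.535 in control ASO 2.

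**Figure D2:**
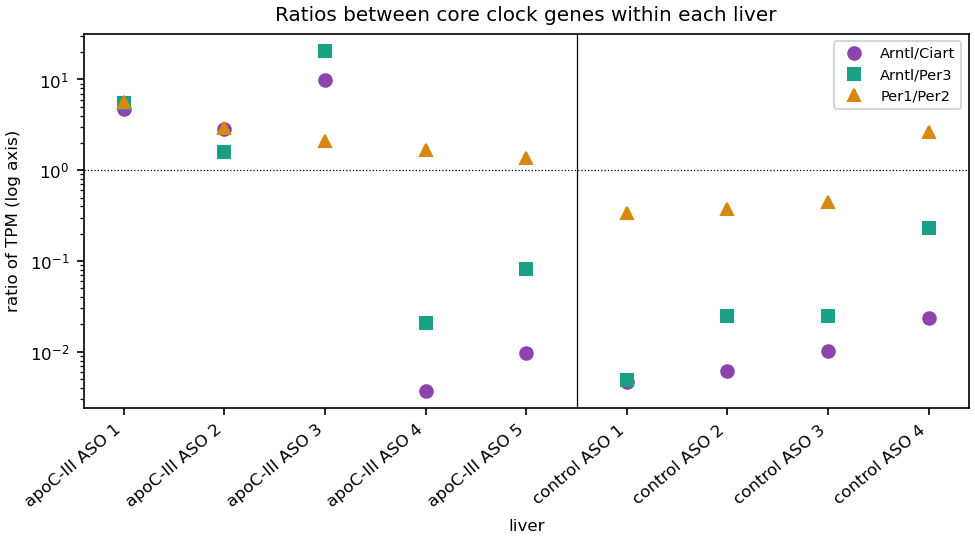
Ratio of TPM (vertical axis, log scale) between core clock genes in each of the 9 livers: Arntl over Ciart (purple circles), Arntl over Per3 (green squares) and Per1 over Per2 (orange triangles). Both Arntl ratios exceed 1 in apoC-III ASO 1, 2 and 3 and are 0.231 or less elsewhere, whereas Per1 over Per2 is under 1 in control ASO 1, 2 and 3 only.

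The ASO groups were compared by limma's trend method on log2(rescaled value + 1), over the 11954 genes with a mean of at least 1. Of the 8 core clock genes tested, 0 passed both thresholds, an adjusted p (Benjamini-Hochberg) under 0.05 and more than a 1.5-fold change, against 0.0167% of all genes. The called genes were *Apoc3* and *Anpep*. Over the 8 clock genes the adjusted p ranged from 0.864 to 0.984. At an unadjusted p under 0.05 stood 3 of the 8, against 5.56% of all genes. Because the genes were selected on the values of these livers, these p-values and shares only describe the set and do not test it. *Arntl* was on the higher side, with 2.99% of all genes, and *Per2* and *Per3* on the lower side, with 2.58%. Log2 fold changes over 1, as that of *Arntl*, were found in 1.05% of all genes, and those under -1, as for *Per2*, *Per3* and *Ciart*, in 1.33%. The groups overlapped for all 8, and 1.83% of all genes had groups that did not overlap.

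*Arntl* had a log2 fold change, apoC-III ASO over control ASO, of 2.03 (SE 0.73), with an unadjusted p of 0.0174 and an adjusted p of 0.864 in limma. *Clock* had 0.63 (SE 0.32, unadjusted p = 0.0736 in limma). *Per2* had -2.31 (SE 0.77, unadjusted p = 0.0112 in limma), *Per3* -1.80 (SE 0.81, unadjusted p = 0.0465) and *Ciart* -2.31 (SE 1.26, unadjusted p = 0.0921). *Per1*, *Cry1* and *Cry2* had -0.48 (SE 0.41), -0.21 (SE 0.47) and -0.13 (SE 0.29). All 6 repressors had values below 0, although *Cry1* and *Cry2* had 0.18 and 0.32 without the median-of-ratios factors, a scaling under which the median of all genes was 0.41. *Per1* was then -0.027, and -0.17 without apoC-III ASO 3. With factors taken over all genes of the deposited TPM, *Per2* had -1.28, *Per3* -0.74 and *Ciart* -1.02, and in TPM as deposited they had -1.49, -0.92 and -1.01. On these TPM scales the added 1 also shrinks the fold changes of low values. Of all genes 50.2% were below 0, and the median of the 8 clock genes was -0.35 beside -0.00122 for all genes. Intervals were wide: the 95% interval of *Ciart* ran from -5.06 to 0.44 and that of *Arntl* from 0.43 to 3.62. In whole liver, a lower share of cells that express a gene and less RNA of it per cell cannot be told apart.

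Without apoC-III ASO 1, 2 and 3, a choice made after seeing the data, 2 treated livers were left against 4 controls, and 0 of the 8 clock genes and 0 of 11938 genes were called. At an unadjusted p under 0.05 in limma stood 674 genes, among them *Ciart* alone of the 8. Its log2 fold change was then 1.12 (SE 0.38, unadjusted p = 0.0171, adjusted p = 0.857), the opposite direction from that in all livers. *Arntl* had 0.27, *Clock* -0.11, *Per1* 0.39, *Per3* 0.016, *Cry1* 0.29 and *Cry2* 0.38, so that only *Per2*, at -0.87, and *Clock* were below 0. *Apoc3* had -2.69 in this fit (adjusted p = 0.103 in limma).

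**Figure D3:**
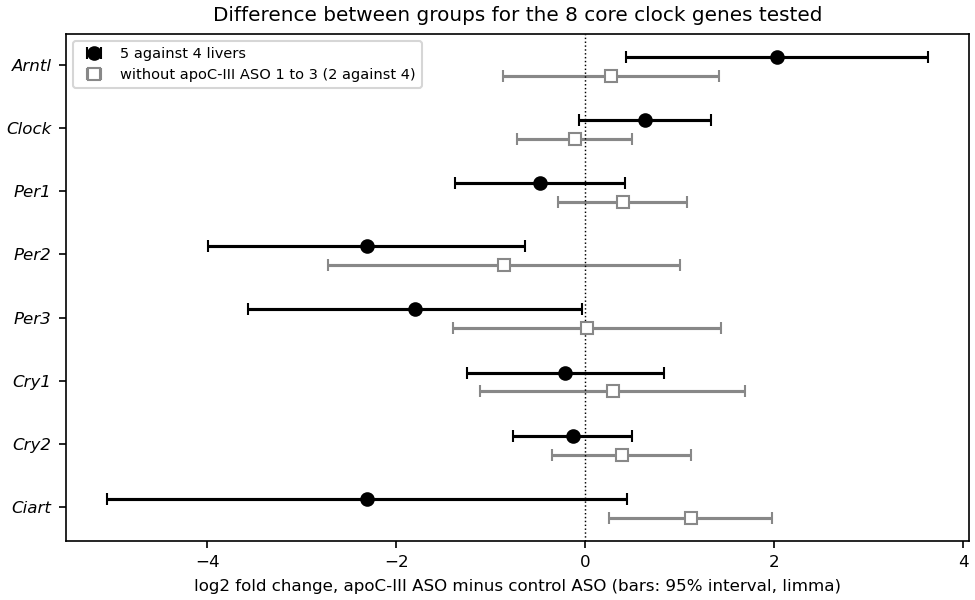
Log2 fold change (horizontal axis, apoC-III ASO minus control ASO) of the 8 core clock genes tested, with 95% intervals from limma, for all 9 livers (black circles) and without apoC-III ASO 1 to 3 (gray squares). Leaving out these 3 livers takes Ciart from -2.31 to 1.12 and Arntl from 2.03 to 0.27. Cry1 and Cry2, at -0.21 and -0.13 in all livers, lie above 0 without the 3 livers and also without the median-of-ratios factors.

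Across the 9 livers the 2 arms of the loop were opposed. Pearson's r of the log2 values was below 0 in all 18 pairs of an activator and a repressor, with a median of -0.84 and a range from -0.99 to -0.19. It was above 0 in all 3 pairs of activators (median 0.91) and in all 15 pairs of repressors (median 0.73, from 0.023 to 0.94). The activator pairs include those of *Npas2*, which was too scarce for the group test (mean 0.822). Quantile normalization left the median of the 18 pairs at -0.83, with all 18 below 0. The opposition was weaker under the other scalings. Without the median-of-ratios factors the median was -0.49, in TPM as deposited it was -0.31, and 2 of the 18 pairs were above 0 in each. With factors over all genes of the deposited TPM it was -0.72, with 18 pairs below 0. On both TPM scales the added 1 also compresses low values. *Arntl*, *Clock* and *Npas2* reached only 1.46, 1.83 and 0.213 TPM, so these 2 medians do not show scaling alone. These 36 values share the same 9 livers and the same scaling, and they rest in good part on the 3 livers that stood apart. Over the other 6 livers the median of the activator and repressor pairs was -0.51, with 12 pairs below 0 and 6 above. That of the activators was 0.21, with 1 of 3 pairs below 0, and that of the repressors 0.26, with 5 of 15 below 0. The 0.21 is the r of *Arntl* and *Npas2*, and *Npas2* had 0.143 rescaled units or less in these 6 livers. Centering each liver on its own group's mean left the medians at -0.80, 0.87 and 0.74.

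The closest pair was *Clock* and *Ciart*, with r = -0.99 and Spearman's rho = -0.97 over 9 livers. Without the 2 livers farthest from the median of *Clock*, r was -0.98. Over the 6 livers, where *Clock* ran only from 9.91 to 11.9 rescaled units, it was -0.88. The lowest r of any activator and repressor pair was -0.88 without the median-of-ratios factors and -0.82 in TPM as deposited. *Per1* and *Ciart* also kept their relation, with r = 0.90 and rho = 0.98 over 9 livers, 0.91 without the 2 farthest and 0.94 over the 6. *Per2* and *Per3* had r = 0.94 and rho = 0.92, with 0.95 and 0.84 in the smaller sets. *Arntl* and *Per3* had r = -0.96 and rho = -0.92, with -0.88 and -0.74. In these 4 pairs the sign was the same with any 1 liver left out. The r of each single pair under other scalings is not reported here.

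Other pairs did not hold within the 6 livers. *Arntl* and *Ciart* had r = -0.89 (rho = -0.58) over 9 livers and -0.73 without the 2 farthest, but 0.51 over the 6. *Arntl* and *Clock*, partners in the active pair, had r = 0.91 (rho = 0.55) over 9 livers, 0.79 without the 2 farthest and -0.59 over the 6. *Arntl* and *Per1* had -0.82 (rho = -0.57), -0.41 and 0.41. *Cry1* was the member least tied to the others over the 9 livers: with *Arntl* it had -0.19 (rho = -0.13) and with *Cry2* 0.023 (rho = 0.083) over 9 livers. Its closest partners were *Ciart* at 0.50 and *Clock* at -0.49, and over the 6 livers these were 0.58 and -0.87.

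**Figure D4:**
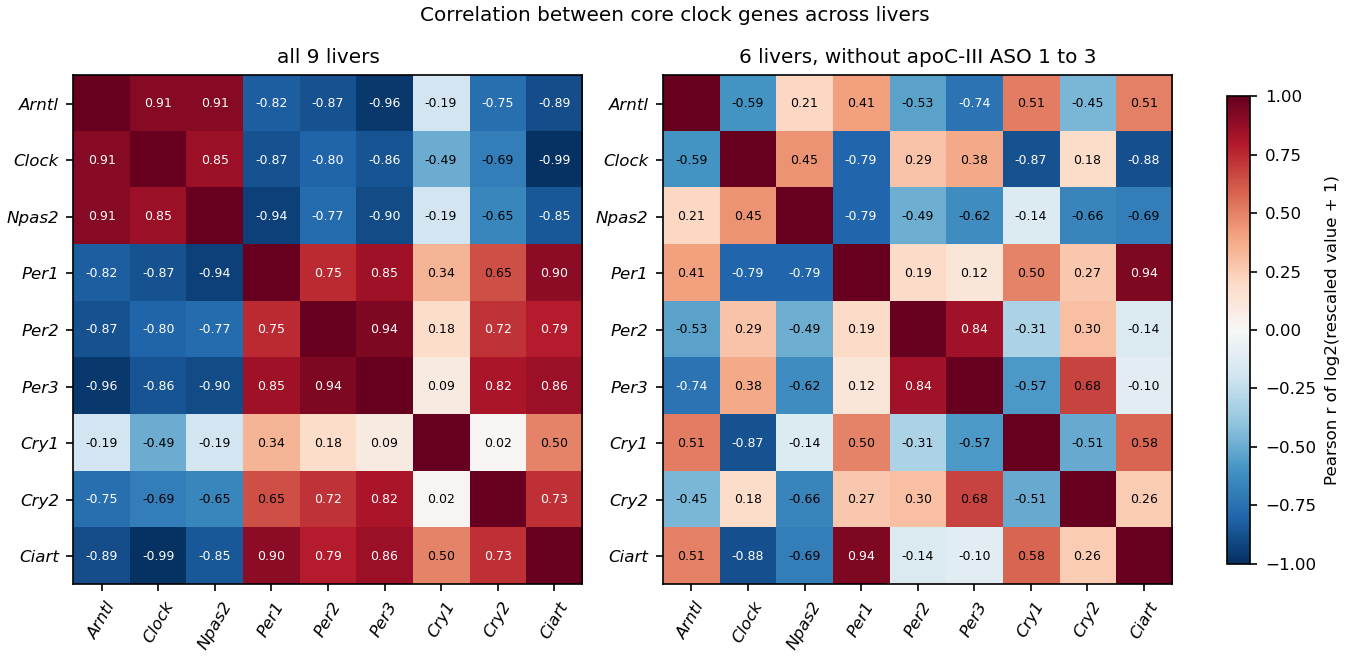
Pearson's r of log2(rescaled value + 1) for each pair of the 9 core clock genes over all 9 livers (left) and over the 6 livers without apoC-III ASO 1 to 3 (right), colored from -1 (blue) to 1 (red). Over 9 livers all 18 activator and repressor pairs are below 0 (16 without the median-of-ratios factors or in TPM as deposited); over 6 livers 12 of 18 are, and Clock with Ciart stays at -0.88.

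The genes whose pattern was most like that of *Arntl* were ranked by r over the 9 livers among 8591 genes with a mean of at least 5. Among the highest were *Kctd10* (0.96), *Nfil3* (0.95), *Fgfr4* (0.94) and *Mical2* (0.94), of which *Nfil3*, the repressor at D-boxes, had 0.89 over the 6 livers, *Kctd10* 0.60, *Fgfr4* 0.47 and *Mical2* 0.33. Lowest were *Ndel1* (-0.96), *Dbp* (-0.95), *Rapgef1* (-0.94), *Shmt2* (-0.93) and *C1ra* (-0.92), which had -0.70, -0.51, -0.80, -0.94 and -0.58 over the 6 livers. *Shmt2*, an enzyme of folate metabolism, had 106 to 129.7 rescaled units in apoC-III ASO 1 to 3, 131 to 145 in apoC-III ASO 4 and 5 and 132.7 to 164 in the controls. For *Per3* the highest were *Ndel1* (0.97), *Gpt* (0.96), *Vps13a* (0.93), *Mrpl41* (0.93) and *Rapgef1* (0.93), and the lowest *Cyp4f17* (-0.97), *Pnrc1* (-0.96), *Git2* (-0.95), *Clpx* (-0.94) and *Lnx2* (-0.94). Over the 6 livers the highest 5 had 0.70 to 0.97 and the lowest 5 -0.96 to -0.85 with *Per3*.

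The second loop showed less of the division. Of its 7 listed genes 6 were tested, 0 were called, and the median log2 fold change was -0.20, or 0.089 without apoC-III ASO 1, 2 and 3. *Rora*, an activator at AGGTCA elements, was the single gene of this list at an unadjusted p under 0.05 (0.61, SE 0.23, limma adjusted p = 0.876; 0.80 without the 3 livers). Its groups did not overlap, with 18.1 to 33.4 rescaled units against 12.9 to 17.9. *Nr1d1*, which encodes REV-ERBα and is an E-box target like *Per* and *Ciart*, had 21.8, 42.3 and 21.6 in the livers rich in *Arntl* and 20.3 and 8.52 in apoC-III ASO 4 and 5. The controls had 25.8, 24.3, 25.7 and 1.91, so its lowest liver was control ASO 4, and r with *Arntl* was 0.14. *Bhlhe41*, a repressor at E-boxes, had the largest difference of the list (-0.73, SE 0.46; -0.45 without the 3 livers).

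Among the PAR bZIP output factors, *Dbp* and *Nfil3* divided the livers as the core genes did. *Dbp*, a direct target of the activators that drives many liver enzymes, had 2.92, 22.2 and 2.70 rescaled units in apoC-III ASO 1, 2 and 3 and 152 and 97.7 in apoC-III ASO 4 and 5. The controls had 103, 78.1, 100.5 and 68.2. These 3 livers were again the lowest, and the log2 fold change was -1.99 (SE 1.01, unadjusted p = 0.073 in limma). Without them it had the opposite sign, 0.49 (SE 0.31). *Nfil3*, which competes with DBP, had 11.3, 10.7 and 17.4 in the same livers, 5.72 and 8.68 in the other treated livers and 3.31 to 6.70 in the controls (0.96, SE 0.30, unadjusted p = 0.00836, adjusted p = 0.864 in limma), and 0.49 (SE 0.35) without these livers. *Hlf* had -0.35 (SE 0.46), and 0.12 without them. Of the 4 factors 0 were called and 1 stood at an unadjusted p under 0.05, and their median was -0.28, or 0.49 without the 3 livers.

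Among 15 genes whose products modify clock proteins, 0 were called, 0 had an unadjusted limma p under 0.05, and the median log2 fold change was 0.066, or 0.24 over 14 genes without apoC-III ASO 1, 2 and 3. The casein kinases, which phosphorylate PER proteins, were in this list. Its largest differences were those of *Usp2*, a deubiquitinase (-1.59, SE 0.97), of *Nampt*, the NAD salvage enzyme (-0.53, SE 0.48), and of *Fbxl21* (0.43, SE 0.41). *Usp2* and *Nampt* are themselves targets of the loop. *Usp2* had 2.90, 3.54 and 0.777 rescaled units in apoC-III ASO 1, 2 and 3 and 21.7 to 59.0 in the other 6 livers, and *Nampt* had 16.3, 21.8 and 11.4 against 34.4 to 69.9. Without the 3 livers both log2 fold changes had the opposite sign, 0.93 (SE 0.42) for *Usp2* and 0.67 (SE 0.26, limma adjusted p = 0.857) for *Nampt*, and *Fbxl21* was not tested.

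Clock-controlled genes of liver metabolism were given by a list of 13, of which 0 were called, 0 had an unadjusted limma p under 0.05, and 10 had values below 0 (median -0.43). Without apoC-III ASO 1, 2 and 3, 4 of the 13 were below 0 and the median was 0.33. *Por*, the reductase that feeds electrons to cytochromes P450, had 92.0, 135.6 and 57.4 rescaled units in apoC-III ASO 1, 2 and 3 and 231 to 675 in the other 6 livers. *Gys2*, liver glycogen synthase, had 92.0, 52.5 and 34.8 against 117 to 269, and *Wee1*, a cell cycle kinase, 0.341, 0.241 and 0.283 against 1.39 to 4.24. For all 3 genes and for *Pck1*, the gluconeogenic enzyme, the livers rich in *Arntl* were the 3 lowest. The largest differences of the list were those of *Cdkn1a*, a cell cycle inhibitor (1.44, SE 0.73), *Elovl3*, a fatty acid elongase (1.27, SE 0.79), and *Cyp7a1*, the rate-limiting enzyme of bile acid synthesis (-0.98, SE 0.51). Without the 3 livers these were 1.16 for *Cdkn1a*, -0.26 for *Elovl3* and -0.22 for *Cyp7a1*.

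*Elovl3* had 232, 234 and 709 rescaled units in apoC-III ASO 1, 2 and 3, but control ASO 4 had 237 and the other 5 livers 25.0 to 82.8. *Thrsp*, a factor of lipogenesis outside the list, had 28.7, 49.7 and 33.8 in the 3 livers and 161 to 590 in the other 6. Its log2 fold change was -1.68 (SE 0.70, unadjusted p = 0.0346, adjusted p = 0.878 in limma), and 0.026 without the 3 livers.

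**Figure D5:**
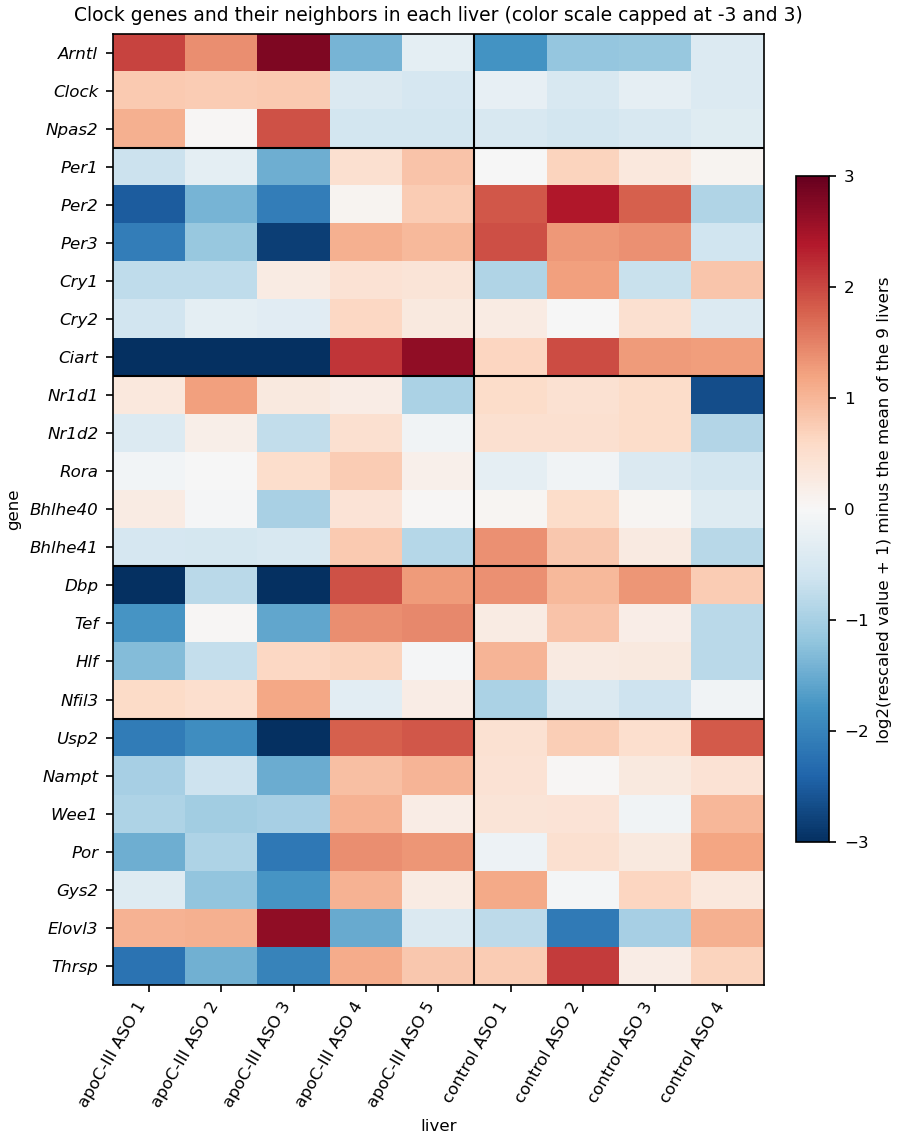
Log2(rescaled value + 1) of each gene minus its mean over the 9 livers (blue below, red above, capped at -3 and 3), for livers in columns and, from top to bottom, the activators, the repressors, the second loop, the PAR bZIP factors, and clock-controlled and metabolic genes. In apoC-III ASO 1 to 3 the activators and Nfil3 are above their means, whereas Ciart, Dbp, Usp2, Nampt, Por and Thrsp are below theirs.

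Of 10 genes that carry systemic timing cues, such as glucocorticoid targets and temperature-responsive genes, 0 were called and 0 had an unadjusted limma p under 0.05 (median 0.15, or 0.48 without apoC-III ASO 1, 2 and 3). The largest differences were those of the chaperones *Hspa1b* (0.90, SE 0.56) and *Hsph1* (0.32, SE 0.43) and of the cold-inducible *Cirbp* (0.55, SE 0.25). Without the 3 livers they were 1.55, 0.60 and 0.22. *Cirbp* had 47.3, 29.9 and 47.6 rescaled units in apoC-III ASO 1, 2 and 3, 23.3 and 32.0 in apoC-III ASO 4 and 5, and 18.2 to 28.2 in the controls, and its r with *Arntl* was 0.87.

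The hepatocyte markers were abundant in every liver, with sums over 7 genes of 23669 to 53094 rescaled units in the apoC-III ASO group and 31997 to 43552 in the control ASO group. The largest differences were those of *Serpina1a* (-0.50), *Tat* (-0.47) and *Apoa1* (-0.34), with 0 of 7 called. *Tat* and *Cps1* were lowest in apoC-III ASO 1, 2 and 3, and *Tat* had 0.62 without them. *Alb*, *Ttr*, *Apoa1*, *Apob* and *Serpina1a* did not have these livers as the 3 lowest or highest. *Alb* and *Ttr* were highest in apoC-III ASO 1 (39725 and 3184 rescaled units) and lowest in apoC-III ASO 2 (15309 and 1377). Kupffer cell and leukocyte markers summed to 69.1 to 103 and 69.5 to 108 (5 genes, 0 called; *Cd68* 0.31, *Ptprc* -0.27, *Clec4f* -0.18) and sinusoidal endothelial markers to 75.1 to 114 and 63.8 to 113 (4 genes, 0 called; *Clec4g* 0.50, *Pecam1* -0.16, *Kdr* -0.16). These sums covered similar ranges in both groups.

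Stellate cell markers summed to 96.0 to 122 in the apoC-III ASO group and 116 to 214 in the control ASO group, with 0 of 4 called. *Lrat* (-0.89) and *Dcn* (-0.57) stood at an unadjusted p under 0.05, with limma adjusted p of 0.848 and 0.878, and *Des* had -0.21. *Lrat* and *Dcn* were also lowest in apoC-III ASO 1, 2 and 3, but *Des* and *Reln* were not. *Reln* had 23.6, 31.8 and 22.1 rescaled units there, 19.1 and 17.8 in apoC-III ASO 4 and 5, and 20.2 to 31.4 in the controls. The groups of *Lrat* did not overlap, with 0.977 to 1.63 against 2.30 to 5.29, as in 1.83% of all genes. Of 4 cholangiocyte markers 2 were tested and 0 called (*Sox9* 0.47, *Krt19* -0.36), with sums of 2.80 to 7.04 and 2.86 to 4.73; *Krt19* and *Epcam* were listed at 0 in at least 1 liver, and *Sox9* was highest in apoC-III ASO 1, 2 and 3. Hemoglobin transcripts summed to 37.6 to 920 and 37.6 to 2154, with the highest sums in control ASO 4 and apoC-III ASO 4, and 0 of 4 were called (*Hba-a2* -1.98, *Hba-a1* -0.64, *Hbb-bs* -0.34). Without apoC-III ASO 1, 2 and 3 the medians of these lists were -0.12 for hepatocytes, -0.28 for Kupffer cells and leukocytes, 0.0046 for endothelial cells, -0.40 for stellate cells, 0.25 for cholangiocytes and 1.03 for blood, beside -0.30, -0.094, -0.044, -0.39, 0.054 and -0.49 in all livers. The part of these markers in the values of the clock genes was not tested.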

How the data were processed

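Liver RNA from 9 mice, depleted of ribosomal RNA, had been sequenced as stranded single-end libraries. Gene-level TPM were deposited by the authors, and the submitters' notes name kallisto 0.43.1 and GRCm38. The study's methods name STAR, featureCounts and DESeq2 on counts, which were not used here. All value columns belonged to a mapped liver. Of 51912 gene identifiers, 51633 (99.46%) were in GENCODE M21. TPM of the 21780 nuclear protein-coding genes were made to sum to 1000000 in each liver, and median-of-ratios factors from 12256 genes were then applied. Depth is unknown, since TPM keeps none.

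Groups followed the labelled ASO target. Log2(value + 1) of the 11954 genes with a mean of at least 1 was compared between 5 and 4 livers with limma 3.58.1 in R 4.3.3 (lmFit, eBayes with trend, no covariates), with Benjamini-Hochberg adjustment over all of them. A gene was called at an adjusted p under 0.05 and over 1.5-fold, the study's thresholds. Each liver came from a separate mouse. The pseudocount understates fold changes of low genes. Steps were tested on simulated data. Other steps ran in Python 3.11.15 with pandas 2.3.3, numpy 2.4.6, matplotlib 3.10.9 and scipy 1.17.1. Promoter windows came from RefSeq.

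The 9 genes and all lists were chosen with earlier results of these data known. Named genes are all 9 members, *Apoc3*, *Elovl3* and *Thrsp*. From each list they are the 3 largest absolute log2 fold changes and up to 5 at an unadjusted p under 0.05. Of genes with a mean of at least 5 they are the 5 highest and 5 lowest r with *Arntl* and with *Per3*. Other genes were named after their values were seen. The values of some genes under this rule are not reported here. Correlations carry no p. Alternatives were other pseudocounts, filters, scalings, eBayes and weight settings, thresholds, a replicate block, Spearman's rho, group-centered values and livers left out.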

Additional observations from a re-analysis of the deposited data

Results flagged for a closer look

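Within each group, the highest or lowest liver was compared with its nearest neighbor by Dixon's criterion, for 43 genes of the clock and marker lists in 86 groups. In 6 groups 1 liver lay far from the others, and chance gives about 1 in 20 groups. None of these was one of the 9 core clock genes. *Bhlhe41*, the repressor at E-boxes, had 2.35 rescaled units in apoC-III ASO 4 and 0.393 or less in the other treated livers. *Fbxl21*, which encodes an F-box protein, had 3.75 in apoC-III ASO 1 and 0.866 or less in the others of its group. *Tat*, a gluconeogenic amino acid enzyme, had 4174 in control ASO 4 and at most 923 in the other controls. *Dcn*, a matrix gene of stellate cells, had 102 in apoC-III ASO 5 and at most 74.7 in the other treated livers. *Hba-a2* had 162 in control ASO 4 and at most 9.76 in the other controls. *Hbb-bs* had 591 in apoC-III ASO 4 and at most 56.9 in the other treated livers.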

How the results depend on the processing

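The count of core clock genes called was 0 under every alternative run, with adjusted p between 0.0773 (*Per2*, TPM as deposited) and 0.9998. In TPM as deposited and with factors over all genes only 5 core clock genes were tested. There *Arntl*, *Clock* and *Cry1* missed the minimum mean of 1, so no activator was tested on these scales. Of 162 fold changes under alternatives 151 kept their direction and 11 reversed. Leaving out apoC-III ASO 1, 2 and 3, chosen after seeing the data, reversed *Clock* (-0.11), *Per1* (0.39), *Per3* (0.016), *Cry1* (0.29), *Cry2* (0.38) and *Ciart* (1.12). Omitting the median-of-ratios factors reversed *Cry1* (0.18) and *Cry2* (0.32) and moved the median of all genes to 0.41; in TPM as deposited it was 0.11. With each liver left out, *Cry1* ran from -0.55 to 0.16 (0.16 without control ASO 2 and 0.027 without control ASO 4) and *Cry2* from -0.30 to 0.0023 (without control ASO 3).

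The count of all genes called, 2 here, was 1 without a filter, 1 without the factors, 11 in TPM as deposited, 1 to 3 with each liver left out (1 without any one of apoC-III ASO 1 to 4 or control ASO 1 or 3) and 0 without apoC-III ASO 1, 2 and 3. The median r of activator and repressor pairs was -0.83 with quantile normalization. It was -0.49 without the factors, -0.31 in TPM as deposited and -0.72 with factors over all genes. As Spearman's rho it was -0.69, and it was -0.68 without the 2 farthest livers and -0.51 without apoC-III ASO 1, 2 and 3. That of activators was 0.79 in TPM as deposited, 0.71 as rho and 0.21 without the 3 livers, and that of repressors 0.58 without the factors and 0.26 without the 3 livers. The cause was not tested.

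Replicate numbers were checked for pairing by the correlation of deviations from group means, which was 0.066, 0.12, 0.026 and 0.19 for numbers 1 to 4, and number 4 alone matched its own number best. A replicate block gave 3 called genes, 934 at an unadjusted p under 0.05 and 0 of 8 clock genes called, with 5 of the 8 at an unadjusted p under 0.05 and a lowest adjusted p of 0.554 in limma. Depth is unknown, so counting error could not be set beside any difference.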
